A study of Mus musculus with 2 samples.

Results

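The nuclear long noncoding RNAs described here are 10 genes taken by their symbols, *Malat1*, *Neat1*, *Meg3*, *Rian*, *Mirg*, *Miat*, *Snhg11*, *Snhg14*, *Kcnq1ot1* and *Pvt1*, and all 10 were found among the 32285 genes of the count matrices. Their levels came from single-nucleus RNA sequencing of the mouse hippocampus in 1 PS19 library and 1 PZKO library. PS19 mice (PS19+/- Zbp1+/+) carry a transgene for human tau with the P301S mutation, which the mouse prion promoter drives. PZKO mice (PS19+/- Zbp1-/-) carry the same transgene and lack *Zbp1*, which encodes a sensor of Z-form nucleic acids, so that both groups are tauopathy mice and neither is a healthy control. Hippocampi of 5 males aged 9 months were pooled for each genotype. The protocol text also says that animals were handled separately, but no animal label accompanies the counts. With 1 pool per genotype, the effect of the genotype and any difference between the pools or library preparations cannot be told apart, and no test between genotypes was possible. All intervals are exact 95% intervals that cover counting error only.

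Long noncoding RNAs are transcripts that are not translated into a long protein, and several of them act where they are made, in the nucleus. *Malat1* gathers in nuclear speckles, the depots of splicing factors, and *Neat1* is the RNA scaffold around which the proteins of paraspeckles assemble. *Meg3*, *Rian* and *Mirg* lie one after the other in the imprinted Dlk1-Dio3 domain and are transcribed from the maternal chromosome, while *Snhg14* and *Kcnq1ot1* are transcribed from the paternal chromosome and silence neighbouring genes on it. *Miat* is known as a neuronal transcript also called Gomafu, *Snhg11* is a host gene of small nucleolar RNAs, and *Pvt1* is the neighbour of the *Myc* oncogene. Because nuclei were sequenced, the values say nothing of these RNAs in the cytoplasm.

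The libraries held 11469 PS19 and 10920 PZKO nuclei with 116488513 and 171167884 unique molecular identifiers (UMIs, each standing for 1 captured RNA molecule), at medians of 5642 and 8342.5 UMIs per nucleus, and 47 barcodes occurred in both. After filtering, 9590 PS19 and 9307 PZKO nuclei fell into 32 clusters, of which 26 were assigned to 12 cell classes by marker genes. *Zbp1* had 92 UMIs in the PS19 nuclei kept and 38 in the PZKO nuclei kept (0.915 and 0.25 CPM, counts per 1000000 UMIs of the nuclei in question), and in microglia 47 and 20 UMIs, so it was lower in PZKO without being absent. The transcript of *Ttr*, a gene of the choroid plexus, was lower in PZKO in all 7 classes compared between the libraries, by 3.38 to 2.99 on the log2 scale, while choroid plexus nuclei made up 2.72% of the PS19 and 1.01% of the PZKO nuclei kept. The part of dissection and of RNA outside nuclei in the member values was not tested.

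In the GRCm38 (mm10) genome with GENCODE M21 gene models, *Meg3* spans chr12:109541001-109571726, *Rian* chr12:109603940-109661716 and *Mirg* chr12:109729764-109749460, all on the plus strand. *Rian* starts 32.2 kb after the end of *Meg3*, and the unnamed long noncoding RNA *B830012L14Rik* lies between *Rian* and *Mirg*, 33.9 kb after the one and 27.2 kb before the other. A promoter window of each of these 3 members, from 250 bases before to 50 bases after a RefSeq start site in GRCm38.p6, is shown because the genes were highest in the same cell classes, and capitals mark every match to 3 motifs. The motifs were the cAMP response element TGACGTCA, the TATA box core TATAAA and the CCAAT box core CCAAT, each searched on both strands.
Meg3 (chr12:109540746-109541045, plus strand): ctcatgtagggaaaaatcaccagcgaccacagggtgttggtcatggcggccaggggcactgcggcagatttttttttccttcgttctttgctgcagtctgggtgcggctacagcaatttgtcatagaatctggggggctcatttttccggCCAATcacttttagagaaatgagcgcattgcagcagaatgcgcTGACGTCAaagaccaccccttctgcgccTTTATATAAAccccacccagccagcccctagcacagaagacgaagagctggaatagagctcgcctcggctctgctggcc
Rian (chr12:109603695-109603994, plus strand): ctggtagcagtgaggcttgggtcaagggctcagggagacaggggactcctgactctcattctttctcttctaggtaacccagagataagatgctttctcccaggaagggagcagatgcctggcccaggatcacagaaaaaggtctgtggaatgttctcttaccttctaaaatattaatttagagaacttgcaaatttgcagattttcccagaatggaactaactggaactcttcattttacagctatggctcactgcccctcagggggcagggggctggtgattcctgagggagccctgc
Mirg (chr12:109734731-109735030, plus strand): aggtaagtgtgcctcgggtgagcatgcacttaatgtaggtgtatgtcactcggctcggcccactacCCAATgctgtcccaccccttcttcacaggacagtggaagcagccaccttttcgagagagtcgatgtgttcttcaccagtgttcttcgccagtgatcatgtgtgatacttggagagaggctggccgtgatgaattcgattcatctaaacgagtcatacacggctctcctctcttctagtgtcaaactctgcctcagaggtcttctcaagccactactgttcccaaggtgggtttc
The *Meg3* window shown held 1 match to the cAMP response element, whose first base lies 57 bases before the start site, 1 to the CCAAT core at 100 bases before it, and 2 to TATAAA at 29 and 25 bases before it, which overlap each other on opposite strands. A second RefSeq start of *Meg3* has its window at chr12:109545148-109545447, which held 0 matches to the 3 motifs. Among 32851 promoter windows of the same length, 1.79% held the response element, 13.6% TATAAA and 37.4% CCAAT. The *Rian* window held no match to the 3 motifs, which says only that these letters are not in this window, and the *Mirg* window, which lies inside the GENCODE span of *Mirg*, held 1 to the CCAAT core.

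All 3 transcripts carry microRNA genes on their own strand, and RefSeq places 3 mature microRNAs inside *Meg3*, 6 inside *Rian* and 26 inside *Mirg*. The counts are of the host transcripts and hold no measurement of the microRNAs, which are too short for this assay. Of the 35, these are shown to make clear which products the counted host RNA can contain, with the seed (bases 2 to 8) in capitals.
mmu-miR-770-3p, in *Meg3*: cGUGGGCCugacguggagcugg
mmu-miR-370-3p, in *Rian*: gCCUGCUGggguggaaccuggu
mmu-miR-341-3p, in *Rian*: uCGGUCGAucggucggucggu
mmu-miR-134-5p, in *Mirg*: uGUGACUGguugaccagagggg
mmu-miR-382-5p, in *Mirg*: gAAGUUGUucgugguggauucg
mmu-miR-154-5p, in *Mirg*: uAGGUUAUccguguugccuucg
mmu-miR-409-3p, in *Mirg*: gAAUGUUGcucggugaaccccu
mmu-miR-410-3p, in *Mirg*: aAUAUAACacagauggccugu
mmu-miR-453, in *Mirg*: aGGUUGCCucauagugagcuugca
mmu-miR-496a-5p, in *Mirg*: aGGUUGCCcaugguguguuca
Only the last pair shares a seed among the mature microRNAs of the 3 hosts, and the other 33 have a seed of their own there.

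The other members lie outside this domain. *Malat1* (chr19:5795690-5802672, minus strand) and *Neat1* (chr19:5824708-5845478, minus strand) are neighbours with 22 kb between them. *Miat* spans chr5:112213228-112229395 on the minus strand, *Snhg11* chr2:158375638-158386145 on the plus strand, where GENCODE lists it as protein coding, and *Pvt1* chr15:62037986-62378096 on the plus strand. *Snhg14* (chr7:59307924-59975759, minus strand) runs across *Ube3a*, which is on the opposite strand, and *Kcnq1ot1* (chr7:143203458-143296549, minus strand) lies within *Kcnq1* on the opposite strand. Of the 213 gene models that overlap *Snhg14*, *Gm38393* is the coding one on its own strand. Whether the counting used strand or introns is not given in the sources used here, so the reads of *Snhg14* and *Kcnq1ot1* cannot be told apart with certainty from those of the genes they overlap.

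*Malat1* was counted in every class and in nearly every nucleus, with at least 1 UMI in 99.7% of PZKO endothelial nuclei and in 100% of the nuclei of the other 8 classes examined, in both libraries. Its level, given here and below as CPM of the class, was 97408 in PS19 and 77725 in PZKO excitatory neurons, or 9.74% and 7.77% of all UMIs there. The level was highest in pericytes and mural cells, at 11.8% and 11.4% of UMIs, and lowest in microglia, at 4.43% and 4.10%, a spread of 2.66-fold among 11 classes in PS19 and 2.78-fold in PZKO. No other member had so small a spread over these classes. In PS19 no 2 neighbouring classes in this order had overlapping intervals, and in PZKO only excitatory neurons and vascular leptomeningeal cells (VLMC) did. Between excitatory subtypes *Malat1* ranged more widely, from 6.65% of UMIs in PS19 cortex or subiculum neurons to 15.3% in PS19 CA3 neurons, and from 5.48% to 12% in PZKO.

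*Malat1* was lower in PZKO in all 7 classes compared, but only in excitatory neurons by 0.32 or more on the log2 scale, the least fold counted as a difference here. The log2 ratio of PZKO over PS19 was -0.33 in excitatory neurons, -0.30 in inhibitory neurons, -0.20 in astrocytes, -0.19 in oligodendrocyte precursor cells (OPC), -0.18 in oligodendrocytes, -0.13 in endothelial cells and -0.11 in microglia. It was below 0 in each of the 5 excitatory subtypes, from -0.35 in CA3 neurons to -0.17 in dentate granule neurons, and it kept this sign in every class under all settings tried. Scaling with TMM or DESeq2 size factors raised all log2 ratios of a class by 0.02 to 0.10, and the excitatory difference then fell short of that fold. The 16 genes of nuclear speckle proteins, among which the splicing factors *Srrm2* and *Son* had the most UMIs, had median log2 ratios of -0.15 to 0.02 over the 7 classes. In excitatory neurons 15 of 16 were below 0 (median -0.11, beside -0.07 over all genes). There 0 of 16 passed that fold, beside 7.07% of genes upward and 16.2% downward. In astrocytes all 16 were below 0 (median -0.15 beside -0.06) and 1 passed it, beside 16.8% of genes. Past it were also 2 downward in OPC (10.6% of genes), 1 downward in microglia (10.4%) and 1 upward in endothelial cells (6.91%).

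*Neat1* marked glia, vascular cells and epithelia. Its level was 2180 CPM in PS19 and 1925 in PZKO oligodendrocytes, 544 and 486 in astrocytes, 642 and 636 in choroid plexus cells, and 222 and 167 in microglia. In excitatory neurons it was 6.21 and 6.25, so that oligodendrocytes held 351 and 308 times the excitatory level. OPC, the dividing precursors of oligodendrocytes, were far closer to neurons than to mature oligodendrocytes, with 43.7 and 61.0. In oligodendrocytes 95.8% of PS19 and 95.7% of PZKO nuclei had a *Neat1* UMI, against 9.95% and 12.3% of excitatory nuclei, although the excitatory nuclei were deeper, with medians of 18760 and 27984 UMIs against 3333 and 4248.5. Thinned to 1000 UMIs per nucleus, the oligodendrocyte share was 81.5% and 76.0% and the excitatory share 0.71% and 0.613%.

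The low *Neat1* counts in inhibitory neurons and OPC differed between the libraries in the same direction as the markers of oligodendrocytes. Per 1000 UMIs of 6 oligodendrocyte markers, among them *Mbp*, *Mog* and *Mag*, *Neat1* had 146 UMIs in PS19 and 143 in PZKO oligodendrocytes, and fewer in each of the other classes examined, with 29.0 and 32.9 in excitatory neurons, 82.0 and 54.2 in inhibitory neurons, and 77.5 and 51.2 in OPC. *Neat1* was lower in PZKO inhibitory neurons (22.5 against 8.53 CPM, log2 ratio -1.40, interval -1.74 to -1.07), where the summed oligodendrocyte markers were 275 and 157 CPM and all 6 of them were past the fold downward. With doublets kept the *Neat1* levels there were 30.7 and 30.6 (log2 ratio -0.003) and with a stricter filter 9.40 and 6.97, and the call was lost in both settings. It was higher in PZKO OPC (43.7 against 61.0, log2 ratio 0.48, interval 0.05 to 0.93), where the markers were 565 and 1193 and 4 of the 5 with enough UMIs were past the fold upward. The sign turned in 3 settings, and with each library clustered on its own the *Neat1* levels in OPC were 65.7 and 61.1. Over all genes 12.9% were past the fold downward in inhibitory neurons and 7.46% upward in OPC. The part of oligodendrocyte RNA in these *Neat1* differences was not tested. In microglia *Neat1* was lower in PZKO (log2 ratio -0.41, interval -0.57 to -0.25). The summed oligodendrocyte markers there were 1000 and 825 CPM, and 3 of the 5 with enough UMIs were past the fold downward, beside 10.4% of all genes. With a stricter filter the microglial *Neat1* levels were 225 and 204, and with doublets kept 336 and 302.5. The call was lost in both settings, and the part of oligodendrocyte RNA was not tested here either. In oligodendrocytes and astrocytes the *Neat1* ratios were -0.18 and -0.16, and in endothelial cells 0.06 (interval -0.16 to 0.28).

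Within the oligodendrocyte and astrocyte classes *Neat1* varied between clusters as well. The 3 larger oligodendrocyte clusters ranged in PS19 from 1920 to 2251 CPM, and the lowest of them, marked by the cell cycle inhibitor *Cdkn1a*, held 16.7% of PS19 but 5.46% of PZKO oligodendrocytes. Of the 2 astrocyte clusters one had 751 CPM in PS19 and 682.5 in PZKO and the other 312.5 and 318. The 13 genes of paraspeckle proteins, among them *Sfpq*, had median log2 ratios of -0.09 to -0.03, and at most 1 of them was past the fold in any class. Over all genes 4.01% to 7.46% were higher and 6.24% to 16.8% lower in these classes.

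**Figure D1:**
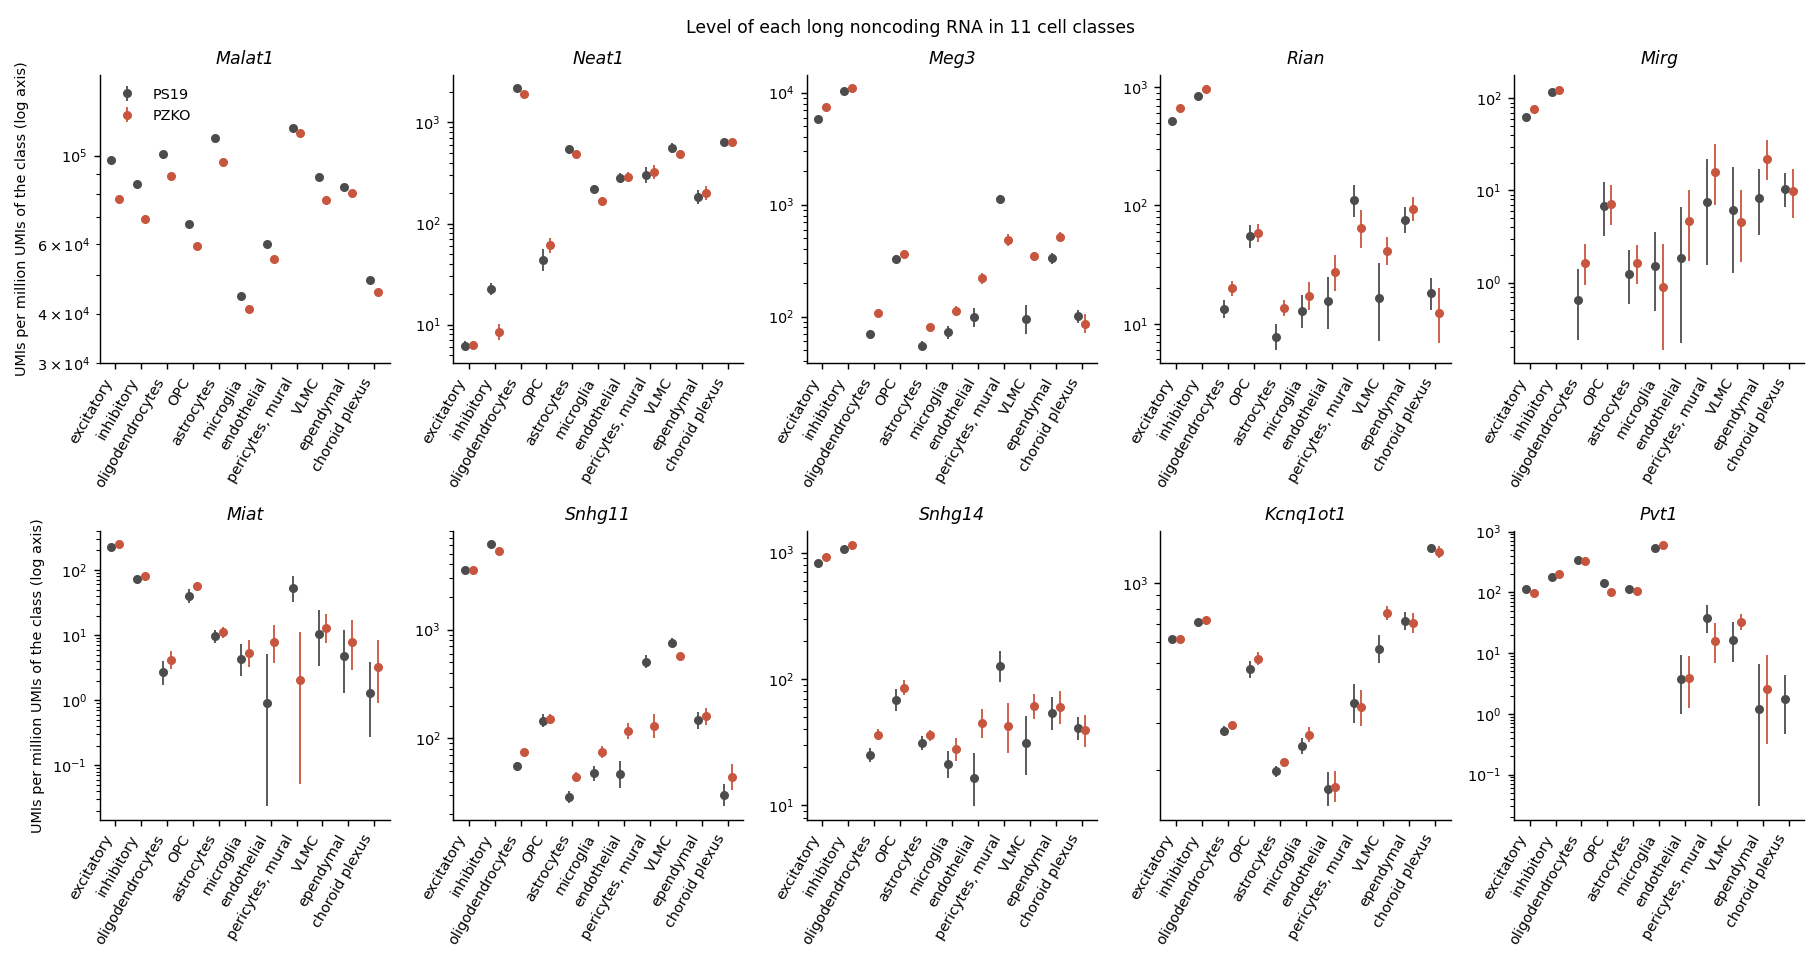
Level of each of the 10 members in 11 cell classes of the PS19 and the PZKO library, in CPM on a logarithmic axis, with exact 95% Poisson intervals (counting error only). *Malat1* stays within 2.78-fold across classes, *Meg3*, *Rian*, *Mirg*, *Snhg11* and *Snhg14* are highest in inhibitory and then excitatory neurons, *Neat1* is highest in oligodendrocytes and *Pvt1* in microglia.

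*Meg3*, *Rian* and *Mirg* were highest in neurons in both libraries, with inhibitory above excitatory neurons. *Meg3* had 10383 CPM in PS19 and 11033 in PZKO inhibitory neurons and 5867 and 7411 in excitatory neurons. *Rian* had 844 and 975 in inhibitory and 514 and 665 in excitatory neurons, and *Mirg* 119 and 125 in inhibitory and 63.2 and 76.9 in excitatory neurons. For none of the 3 did the intervals of the 2 neuron classes overlap in either library. In oligodendrocytes the levels were 69.7 and 109 for *Meg3*, 13.3 and 19.9 for *Rian*, and 0.646 and 1.63 for *Mirg*, and many neighbouring non-neuronal classes had overlapping intervals (5 neighbouring pairs in each library for *Meg3*, 7 in PS19 and 8 in PZKO for *Rian*, and 8 in each for *Mirg*).

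Neuron restriction was taken as a level in excitatory plus inhibitory neurons at least 4 times that in oligodendrocytes, OPC, astrocytes and microglia together, a fold that 10.1% of 15988 genes reached in PS19 and 10.7% of 16627 genes in PZKO. By this definition 6 of the 10 members were restricted to neurons, in PS19 and in PZKO alike. *Meg3* was 78.6-fold higher in neurons in PS19 and 65.6-fold in PZKO (log2 6.30 and 6.04), and 0.6% and 0.662% of genes had a neuron-to-glia ratio as high or higher. *Rian* was 39.7-fold and 34.6-fold higher and *Mirg* 50.3-fold and 41.3-fold. The neurons of the kept nuclei held 99.6% of the *Meg3* UMIs of neurons and glia in both libraries, 99.2% and 99.3% of those of *Rian*, and 99.3% and 99.4% of those of *Mirg*.

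The other restricted members were *Snhg11* (76.4-fold and 54.4-fold), *Snhg14* (29.1-fold and 24.1-fold) and *Miat* (25.9-fold and 19.5-fold). These folds are of pooled classes, and for *Miat* single classes lay closer. It had 72.3 and 81.2 CPM in inhibitory neurons beside 40.4 and 56.0 in OPC. In PS19 pericytes and mural cells, outside the glia pooled here, it had 52.6 on 21 UMIs, an interval overlapping that of inhibitory neurons. In PZKO it had 2.01 there on 1 UMI. *Kcnq1ot1* was 2.44-fold and 2.27-fold higher in neurons, and *Malat1* differed little between neurons and glia (log2 0.03 and -0.12). *Pvt1* and *Neat1* were lower in neurons, by 1.19 and 1.17 and by 7.11 and 7.20 on the log2 scale. The ratio was lower in PZKO for every member but *Pvt1*. The intervals of the PS19 and PZKO ratios overlapped for *Rian*, *Mirg*, *Neat1* and *Pvt1*. They did not for *Meg3*, *Miat*, *Snhg11*, *Snhg14*, *Kcnq1ot1* and *Malat1*. These intervals narrow as UMIs rise, and the share of all genes whose intervals lie apart is not given here. *Mirg*, with 31 and 55 glial UMIs, overlapped at a log2 difference of -0.285. *Malat1*, with 2075909 and 2274191 glial UMIs, did not at -0.154.

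Glial nuclei still held some UMIs of the restricted members, and they also held UMIs of genes that mark neurons. The summed UMIs of 8 neuron markers (*Snap25*, *Syt1*, *Rbfox3*, *Syp*, *Stmn2*, *Nefl*, *Nrgn* and *Grin2b*) were 7897 CPM in PS19 and 7939 in PZKO neurons and 811 and 760 in oligodendrocytes, and in none of the 7 classes compared was any of the 8 at 0. A member that kept the ratio to the markers seen in neurons has a relative value of 1. *Meg3* stood well below it in oligodendrocytes (0.105 and 0.144), astrocytes (0.113 and 0.128) and microglia (0.113 and 0.141). The *Meg3* counts in these glia were thus smaller than the summed neuron markers beside them would bring along at the ratio in neurons. The markers did not keep 1 ratio to each other, however. In PS19 oligodendrocytes *Nefl* had 39.8 CPM and *Syt1* 296.5, against 34.8 and 3887 in excitatory neurons. The size of a relative value therefore depends on the markers summed, and 1 need not be the value that stray neuronal RNA gives.

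OPC differed from the other glia in this measure. There the relative value was 0.612 (interval 0.559 to 0.669) in PS19 and 0.666 (0.623 to 0.712) in PZKO for *Meg3*, 1.19 (0.949 to 1.48) and 1.20 (1.004 to 1.41) for *Rian*, and 2.35 (1.79 to 3.03) and 3.56 (2.98 to 4.23) for *Miat*. The mix of neuron markers differed as well. *Snap25* had 267 and 181 of the 655 and 551 CPM summed in OPC, against 110 and 90.9 CPM in oligodendrocytes. *Grin2b* had 35.0 and 42.5 in OPC and 80.1 and 93.0 in oligodendrocytes. The relative values rest on this sum, and their intervals do not cover the choice of markers. *Miat* was the 1 restricted member whose interval lay above 1 in OPC in both libraries, at 40.4 and 56.0 CPM against 2.69 and 4.21 in oligodendrocytes. *Meg3* had a UMI in 78.9% of PS19 and 90.9% of PZKO OPC nuclei, and in 20.7% and 36.7% of oligodendrocyte nuclei. At 1000 UMIs per nucleus these shares were 27.7% and 31.0% in OPC and 7.52% and 11.5% in oligodendrocytes, against 93.0% and 96.7% in excitatory neurons.

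Vascular and epithelial classes gave further departures, some of them on few UMIs. *Snhg11* had 761 CPM in PS19 and 571 in PZKO VLMC, the fibroblasts of the meninges and large vessels, which was 1.99 (1.79 to 2.21) and 1.95 (1.82 to 2.10) times the neuronal ratio and 2 UMIs in the median VLMC nucleus. In pericytes and mural cells *Meg3* was 1115 and 482 CPM, but the neuron markers were also high there, at 2177 in PS19 and 1021 in PZKO. In choroid plexus cells *Mirg* had 103 UMIs per 1000 *Meg3* UMIs in PS19 and 113 in PZKO, on 24 and 12 *Mirg* UMIs, against 10.9 and 10.6 in neurons.

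**Figure D2:**
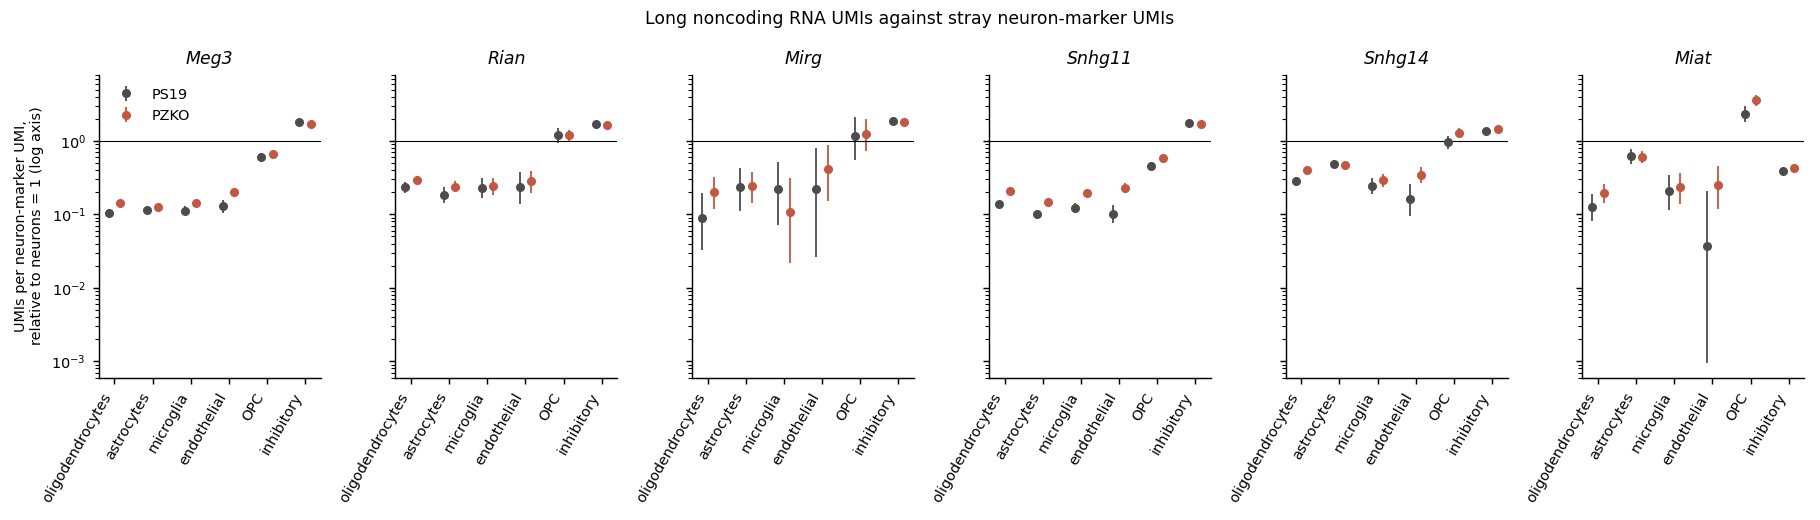
UMIs of the 6 neuron-restricted members per UMI of 8 neuron markers in oligodendrocytes, astrocytes, microglia, endothelial cells, OPC and inhibitory neurons, divided by the same ratio in neurons (logarithmic axis), for PS19 and PZKO, with exact 95% intervals. The line at 1 is the value in all neurons together, below which *Meg3* lies in oligodendrocytes, astrocytes and microglia and above which *Miat* lies in OPC.

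Over all neurons together the proportions within the imprinted domain differed little between the libraries. *Rian* had 86.3 UMIs per 1000 *Meg3* UMIs in PS19 neurons and 89.5 in PZKO neurons, *B830012L14Rik* 22.2 and 22.4, and *Mirg* 10.9 and 10.6. Of 8 neighbours of the domain, 6 could be compared in excitatory neurons, where 2 were higher in PZKO and 0 lower. Among all 15912 genes compared there 7.07% were higher and 16.2% lower. *B830012L14Rik*, with 132 and 166 CPM, was past the fold, as was *Dlk1*, a growth regulator with 1.01 and 1.80 CPM that was named after its value was seen. *Ppp2r5c*, a phosphatase subunit, was not, with 144 and 150.3. These are values of the whole excitatory class, of which dentate granule neurons were 36.6% in PS19 and 17.1% in PZKO. For these neighbours no ratios within subtypes are given. Between excitatory subtypes the value for *Rian* per 1000 *Meg3* UMIs ranged from 76.1 in PS19 CA1 neurons to 99.9 in PS19 dentate granule neurons, and in PZKO from 83.9 to 110 in the same subtypes. With intervals apart, it was higher in PZKO in these subtypes, in CA3 neurons (76.3 and 84.2) and in inhibitory neurons (81.3 and 88.4). It was lower in the excitatory neurons given no subtype (94.7 and 90.6), also with intervals apart. In cortex or subiculum neurons it was 91.3 and 92.6. In glia *Rian* was higher relative to *Meg3*, at 191 and 183 in oligodendrocytes and 168 and 161 in OPC.

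*Meg3*, *Rian* and *Mirg* were lowest among neurons in dentate granule neurons, the principal cells of the dentate gyrus. *Meg3* had 1859 CPM in PS19 and 1936 in PZKO dentate granule neurons and 7297 and 8156 in the other excitatory neurons as 1 group (log2 ratio of dentate over the rest -1.97 and -2.08). The ratio was -1.77 in both libraries for *Rian*, -1.82 and -2.00 for *Mirg*, and -2.57 and -2.56 for *Snhg11*. *Snhg14* followed to a lesser extent, with -0.49 in both libraries. *Kcnq1ot1* (-0.02 and -0.04) and *Miat* (-0.02 and 0.15) were near their level in the other subtypes, *Pvt1* was higher in dentate granule neurons (0.88 and 1.02), and the summed neuron markers had ratios of -0.24 and -0.29.

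**Figure D3:**
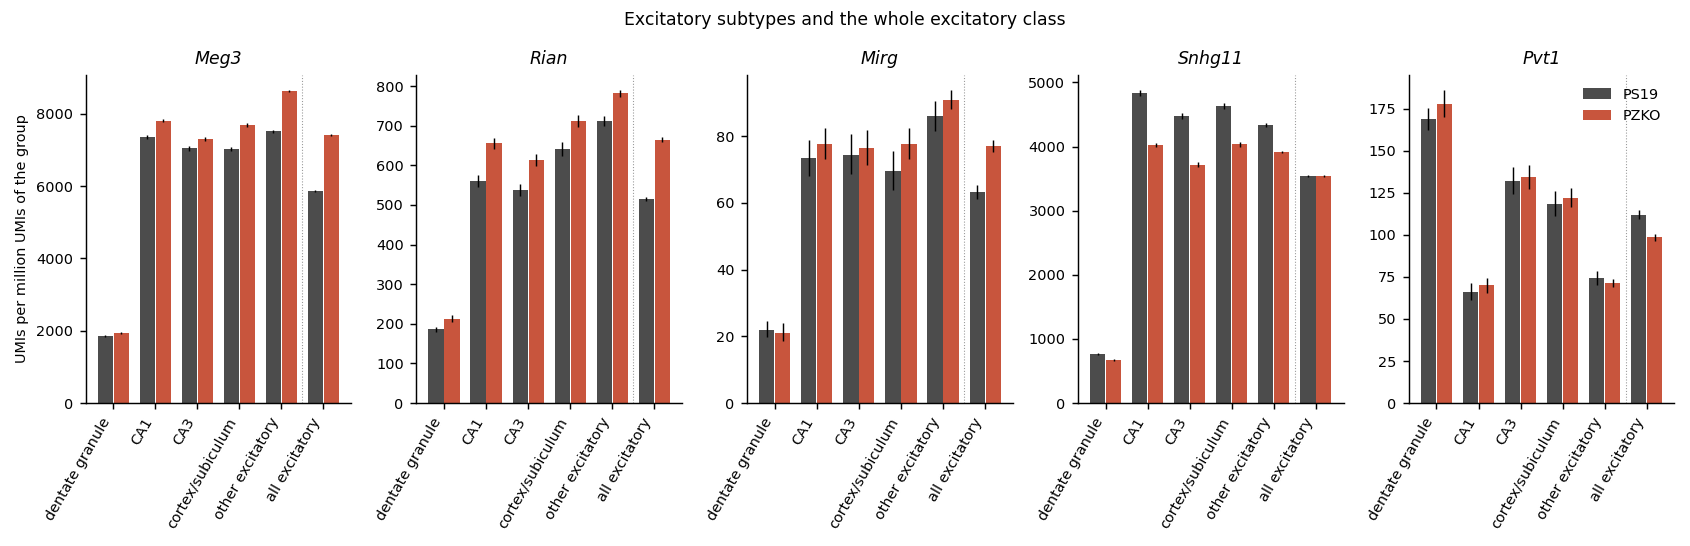
Levels of 5 members in CPM in the 5 groups of excitatory neurons and in the whole class (right of the dotted line) of the PS19 and PZKO libraries, with bars from 0 and exact 95% Poisson intervals. *Meg3*, *Rian*, *Mirg* and *Snhg11* are lowest in dentate granule neurons, where *Pvt1* is highest.

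The pools differed in the share of this subtype. Dentate granule neurons made up 36.6% of PS19 and 17.1% of PZKO excitatory nuclei, and the excitatory neurons given no subtype 27.2% and 45.4%. In the excitatory class as a whole *Meg3* was 1.26-fold higher in PZKO (log2 ratio 0.34, interval 0.33 to 0.34), but within the 5 subtypes its log2 ratio was 0.05 to 0.20, and in none as high as in the class. *Rian* was 0.37 in the class and 0.14 to 0.23 within subtypes, and *Mirg* 0.28 in the class and -0.06 to 0.16 within subtypes.

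*Snhg11* and *Pvt1* also looked different once subtypes were separated. *Snhg11* was at 3538 CPM in both libraries (log2 ratio 0.00), yet it was lower in PZKO in all 5 subtypes, by 0.27 to 0.15 on the log2 scale. In inhibitory neurons its ratio was -0.20 (6085 against 5297). *Pvt1* had a ratio of -0.18 in the class and -0.05 to 0.08 within subtypes. Without the dentate granule neurons, a setting added after the values had been seen, the class ratios were 0.16 for *Meg3*, 0.20 for *Rian*, -0.21 for *Snhg11* and -0.37 for *Malat1*.

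Of 59 pairs of a member and a class with enough UMIs, 19 were past the fold, most of them in glia and endothelial cells. Over all genes 4.01% to 7.46% were higher and 6.24% to 16.8% lower, depending on the class. A member was counted as higher or lower in PZKO where its level differed by 0.32 or more on the log2 scale, its interval lay on 1 side of 0 and it had at least 100 UMIs over both libraries. In excitatory neurons 2 of 10 members were higher (*Meg3* and *Rian*) and 1 was lower (*Malat1*), while among 15912 genes 7.07% were higher and 16.2% lower. In inhibitory neurons 0 were higher and 1 was lower (*Neat1*), with 4.01% of genes higher and 12.9% lower. The median log2 ratio of the members was 0.07 in excitatory and 0.08 in inhibitory neurons, beside -0.07 and -0.04 over all genes.

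In glia the members counted as higher were mostly the neuron-restricted ones. In oligodendrocytes 4 of 8 were higher (*Meg3*, *Rian*, *Snhg11* and *Snhg14*) and 0 lower, where 4.74% of genes were higher and 14% lower. In astrocytes 3 of 9 were higher (*Meg3*, *Rian* and *Snhg11*) and 0 lower, with 4.93% and 16.8% of genes. In microglia 2 of 8 were higher (*Meg3* and *Snhg11*) and 1 was lower (*Neat1*), with 6.02% and 10.4% of genes. The medians of the members in these 3 classes were 0.26, 0.19 and 0.27, beside -0.04, -0.06 and -0.02 over all genes.

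These glial differences were at levels far below those of neurons. *Meg3* was 69.7 CPM in PS19 and 109 in PZKO oligodendrocytes (log2 ratio 0.64, interval 0.50 to 0.78), and in all nuclei kept it was 4843 and 6379 (log2 ratio 0.40). The summed neuron markers were 811 and 760 CPM in oligodendrocytes and 596 and 641 in astrocytes, and single markers went both ways. In oligodendrocytes 3 of the 8 were past the fold downward, while *Syt1*, the marker with the most UMIs, had 296.5 and 329 CPM. In astrocytes 1 was past the fold upward and 1 downward, with a median of -0.21. In astrocytes the direction turned under a stricter filter on nuclei, where *Meg3* had 157 and 90.0 CPM (log2 ratio -0.80, with -0.27 for *Rian* and -0.94 for *Snhg11*). Nuclei were clustered anew in that setting, so this astrocyte class was not a mere subset of the main one. In PS19 it held 803 nuclei, against 1083 nuclei with *Meg3* at 55.2 CPM in the main setting. With the library-wide RNA profile scaled to foreign markers and subtracted, no ratio could be given for *Meg3*, *Rian*, *Snhg11* and *Snhg14* in oligodendrocytes, astrocytes or microglia. A ratio was given only where a member had at least 100 UMIs over both libraries and some in each. After the subtraction these members did not meet this in those classes.

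In OPC 2 of 9 members were higher (*Neat1* and *Miat*) and 1 was lower (*Pvt1*), with 7.46% of genes higher and 10.6% lower. *Miat* had a log2 ratio of 0.47 (interval 0.02 to 0.94) on 60 and 133 UMIs, and *Pvt1* of -0.51 (-0.78 to -0.23) on 213 and 240 UMIs. In endothelial cells 2 of 5 were higher (*Meg3* and *Snhg11*) and 0 lower, with 6.91% and 6.24% of genes. *Meg3* rested there on 107 and 282 UMIs and *Snhg11* on 51 and 151, beside summed neuron markers of 936 and 1090 CPM. Without filters on nuclei *Meg3* had 223 and 225 CPM in endothelial cells (log2 ratio 0.01) and *Snhg11* 106 and 116 (0.13), so neither was past the fold.

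**Figure D4:**
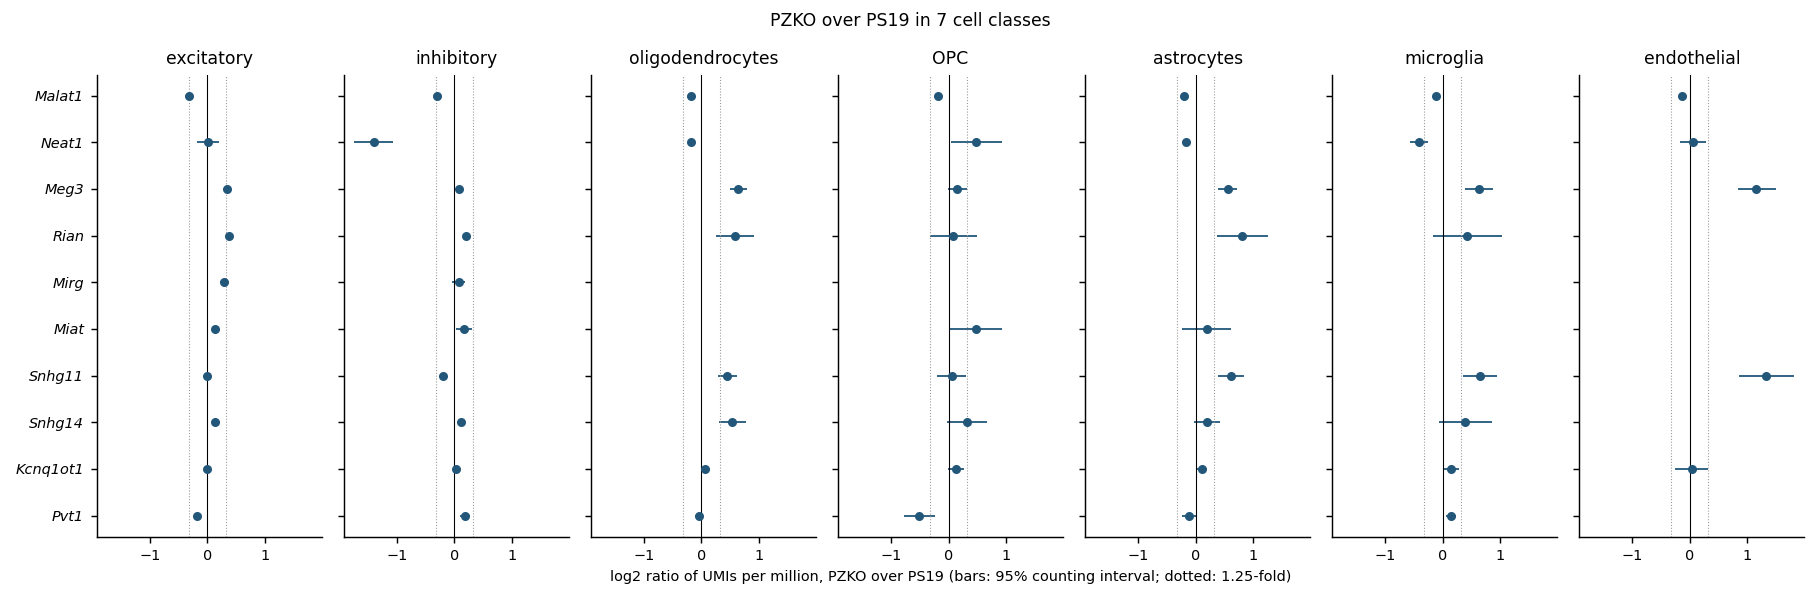
Log2 ratio of PZKO over PS19 for the members with at least 100 UMIs in each of the 7 classes compared between the libraries, with dotted lines at 0.32 to either side of 0 and exact 95% intervals (counting error only). *Malat1* is below 0 in every class, the points of *Meg3* and *Rian* are above 0 in every class where they are drawn, and the widest intervals are those of members with few UMIs.

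*Snhg14*, *Miat* and *Kcnq1ot1* differed little between the libraries in neurons. *Snhg14*, whose transcription silences the paternal copy of *Ube3a* in neurons, had 833 CPM in PS19 and 918 in PZKO excitatory neurons (log2 ratio 0.14) and 1062 and 1154 in inhibitory neurons (0.12). Within excitatory subtypes its ratio was 0.03 to 0.15. *Ube3a*, which encodes a ubiquitin ligase, had 618 and 475 in excitatory neurons (-0.38). Of the 9 listed neighbours of *Snhg14* in the matrix, *Ube3a* among them, 5 had at least 100 UMIs there. Of these 5, 1 was higher (*A230006K03Rik*, 353 and 455.7, named after its value was seen) and 2 were lower, 1 of them *Ube3a*. *A230057D06Rik*, with 393 and 476, fell short of the fold. Over all genes 7.07% were higher and 16.2% lower. These neighbour values are of the whole excitatory class, of which dentate granule neurons were 36.6% in PS19 and 17.1% in PZKO. *Miat* had 228 and 248.6 in excitatory and 72.3 and 81.2 in inhibitory neurons (0.13 and 0.17), which made it the restricted member with a higher level in excitatory than in inhibitory neurons.

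*Kcnq1ot1*, an antisense transcript within a gene of a potassium channel, was widely detected. It was highest in choroid plexus cells, with 1348 CPM in PS19 and 1303 in PZKO, and it had 617 and 615 in excitatory neurons and 711 and 727 in inhibitory neurons. The lowest level was in endothelial cells, with 169 and 173, so that the classes spanned 7.97-fold and 7.54-fold. Its log2 ratio between the libraries was -0.01 to 0.14 over the 7 classes. Of its 4 neighbours with at least 100 UMIs in excitatory neurons 0 were higher and 2 lower, where 7.07% of all genes were higher and 16.2% lower. *Cd81*, a tetraspanin with the most UMIs of them, had 47.7 and 28.2 (-0.76), beside 36.1 and 36.6 for *Nap1l4*, a histone chaperone. These neighbour values are of the whole excitatory class and were not separated by subtype.

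*Pvt1* was highest in microglia and close to absent from endothelial, ependymal and choroid plexus cells. Microglia had 541 CPM in PS19 and 599 in PZKO, oligodendrocytes 344 and 332, inhibitory neurons 178 and 203, and endothelial cells 3.68 and 3.89. In choroid plexus cells it had 4 UMIs in PS19 and 0 in PZKO, where the exact interval reaches up to 3.02 CPM. At 1000 UMIs per nucleus 37.9% of PS19 and 39.7% of PZKO microglia had a *Pvt1* UMI, against 0.312% and 0.336% of endothelial nuclei. Its neighbour *Myc* was sparse, with 0.858 and 0.569 in excitatory neurons (50 and 53 UMIs) and 11.7 and 8.36 in microglia.

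Other noncoding transcripts gave a mixed background. Of 12 spliced hosts of small nucleolar RNAs, led in UMIs by *Gas5* and *Snhg20*, 11 had at least 100 UMIs in excitatory neurons, where 0 were higher and 6 lower in PZKO (median log2 ratio -0.35). In astrocytes 0 of 10 were higher and 7 lower (-0.48). Over all genes 7.07% were higher and 16.2% lower in excitatory neurons, and 4.93% and 16.8% in astrocytes. The excitatory values of these noncoding transcripts were not separated by subtype. *Gas5* had 67.8 CPM in PS19 and 53.2 in PZKO excitatory neurons. Of 15 other long noncoding RNAs, 14 could be compared in excitatory neurons, of which 5 were higher and 1 lower (median 0.15), and the *Trp53*-responsive *Lncpint* had 573 and 747 there (0.38) and *Mir100hg*, a microRNA host, 216.5 and 296 (0.45).

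In excitatory neurons and oligodendrocytes several markers of foreign classes were lower in PZKO, as were mitochondrial and ribosomal protein transcripts. Foreign markers went both ways in endothelial cells, OPC and astrocytes, while in inhibitory neurons and microglia 0 were higher. In endothelial cells 2 of 6 neuron markers were higher and 0 lower, beside 6.91% and 6.24% of all genes. Of the astrocyte markers there 3 of 5 were lower and 0 higher (median -0.65). Of the microglia markers there 1 of 2 was lower, and of 4 oligodendrocyte markers 0 were higher and 0 lower. Of the oligodendrocyte markers, 4 of 5 were higher and 0 lower in OPC (7.46% and 10.6% of all genes). Lower there were 2 of 5 neuron markers and the 1 microglia marker compared. In inhibitory neurons 6 of 6 oligodendrocyte, 2 of 3 microglia and 1 of 5 astrocyte markers were lower (12.9% of all genes). In astrocytes 3 of 6 oligodendrocyte and 2 of 3 microglia markers were lower and 0 higher (16.8% and 4.93% of all genes). Of the 8 neuron markers there 1 was higher and 1 lower. In microglia 3 of 5 oligodendrocyte and 2 of 8 neuron markers were lower (10.4% of all genes). In excitatory neurons 4 of 6 oligodendrocyte, 5 of 6 astrocyte and 1 of 5 microglia markers were lower and 0 higher, with medians of -0.47, -0.48 and -0.30. Over all genes 16.2% were lower and 7.07% higher there, and the microglia count was near that share. In oligodendrocytes 3 of 8 neuron markers were lower and 0 higher (median -0.20), beside 14% and 4.74% of all genes. Of the 13 mitochondrially encoded protein genes all that could be compared were lower in PZKO in 6 of the 7 classes, with medians of -1.30 to -0.58, and in endothelial cells 0 of 12 (median -0.01). In those 6 classes 10.4% to 16.8% of all genes were lower. Ribosomal protein genes had medians of -0.51 to -0.42 in the same 6 classes and -0.01 in endothelial cells. Mitochondrial UMIs made up 0.43% of PS19 and 0.265% of PZKO excitatory UMIs, 0.972% and 0.625% in oligodendrocytes and 1.46% in both libraries in endothelial cells. The part of this difference in the member values was not tested.

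Across the 30 clusters with at least 50 nuclei, both libraries summed, the patterns of the members were compared with those of 13008 genes. The gene closest to *Meg3* was *B830012L14Rik* (Pearson r = 0.992 of log2 levels), followed by *Rian* (0.991) and *Snhg11* (0.980). *Meg3* was the closest gene to *Rian* (0.991), *Mirg* (0.972), *Snhg11* (0.980) and *Snhg14* (0.975). The clusters share their libraries and differ in depth, so no p-value is given.

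Other members had other nearest genes. *Neat1* was closest to *Plaat3* (0.952), a phospholipase, and *Kcnq1ot1* to *Cxadr* (0.864), a junction protein of epithelia. *Pvt1* was closest to *Scamp5* (0.803). For *Malat1* no gene came above 0.639 (*Fam228b*), and its correlation with its neighbour *Neat1* was 0.123. *Neat1* ran opposite to the restricted members, with correlations of -0.916 with *Meg3* and -0.880 with *Snhg11*.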

How the data were processed

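Nuclei of pooled hippocampi were sequenced with the 10x 3′ assay. The authors made gene counts with Cell Ranger on mm10 (7.0.1 in the methods, 8.0.1 in the matrix header), and the deposited counts are whole UMIs before their own filters and corrections. Nuclei needed 600 UMIs, 300 genes and at most 5% mitochondrial UMIs. The top-scoring nuclei in Scrublet were removed as doublets at 0.8% per 1000 nuclei. Clusters came from scanpy 1.11.5 and leidenalg 0.10.2 (2000 variable genes without the members and compared lists, 30 components, 20 neighbours, resolution 1). Clusters were named from markers, with details of the rule set after the clusters had been seen.

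UMIs were summed per library and class and divided by the class total. Intervals were exact Poisson and exact conditional binomial (scipy 1.17.1). The ratio intervals were tested on counts simulated with counting error only, at the rates and depths of microglia and excitatory neurons. Other steps were not part of this simulation. TMM (edgeR 4.0.16) and DESeq2 1.42.0 size factors, stricter or no filters, doublets kept, other clusterings, thinning and subtraction of the library-wide profile were alternatives, and a few were added after seeing the data. With 1 library per genotype no p-value was computed. All members were described, and list examples were the genes with the most UMIs, with the 3 nearest genes per member among those with 1000 UMIs or more. The members and lists were chosen with earlier results of these data known. A few list and nearest genes are not reported here.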

Additional observations from a re-analysis of the deposited data

Results flagged for a closer look

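*Neat1* differed between the libraries in opposite directions in a pair of classes where it was low. Its log2 ratio of PZKO over PS19 was 0.481 in OPC and -1.402 in inhibitory neurons, and this difference between the classes was not tested. The OPC value rested on 65 and 145 UMIs and the inhibitory value on 197 and 121 UMIs, beside summed oligodendrocyte markers of 565 and 1193 CPM in OPC and 275 and 157 in inhibitory neurons. The inhibitory ratio was between -1.43 and -0.003 over the settings that gave a ratio, the latter with doublets kept. The OPC ratio was between -0.155 and 1.96, with its sign turned in 3 settings.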

How the results depend on the processing

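No paired analysis was possible because each genotype had 1 library. The number of neuron-restricted members was 6 in both libraries under every setting tried. Of 59 member and class pairs, 19 were past the fold, and 15 of these had the same sign in every setting that gave them a ratio. Settings without a ratio, such as the subtracted profile for *Meg3* in oligodendrocytes, were left out of this count. In oligodendrocytes *Meg3*, *Rian*, *Snhg11* and *Snhg14* each had 13 settings where *Malat1* had 14. In endothelial cells *Snhg11* had 11 where *Malat1* had 13. In excitatory neurons the 2 higher members became 3 with TMM or DESeq2 scaling, as *Mirg* passed the fold, 1 with *Malat1* left out of the total or with a stricter filter and 0 without dentate granule neurons or within 1 depth range. The 1 lower member became 0 with TMM, DESeq2, a mean over nuclei or 1 depth range, and 2 with doublets kept. Of all genes 16.2% were lower in the main setting, 11.2% with TMM, 10.4% with DESeq2, 8.89% within 1 depth range and 16.4% with doublets kept. In inhibitory neurons the 0 higher became 1 within 1 depth range, and the 1 lower became 2 without *Malat1* in the total or within 1 depth range and 0 with a stricter filter, doublets kept or the profile subtracted. There 4.01% of all genes were higher in the main setting and 7.69% within 1 depth range. Lower were 12.9% in the main setting, 14.6% without *Malat1* in the total and 8.17% within 1 depth range. The lower share was 10.4% with the stricter filter, 12% with doublets kept and 12.3% with the profile subtracted. In oligodendrocytes the 4 higher became 0 with the profile subtracted, where 5.4% of all genes were higher, beside 4.74% in the main setting. In OPC the 2 higher became 3 with TMM or DESeq2 scaling, as *Snhg14* passed the fold, 1 without filters or with each library clustered alone and 0 with doublets kept, when the 1 lower also became 0. Of all genes in OPC 7.46% were higher in the main setting, 12.4% with TMM and 12% with DESeq2. The share was 7.08% without filters, 7.4% with each library clustered alone and 5.35% with doublets kept. Lower were 10.6% in the main setting and 10.5% with doublets kept. In astrocytes the 3 higher became 0 with a stricter filter or the profile subtracted and 1 with doublets kept, and the 0 lower became 2 with the stricter filter. Of all genes in astrocytes 4.93% were higher in the main setting, 4.51% with the stricter filter, 5.19% with the profile subtracted and 4.8% with doublets kept. Lower were 16.8% in the main setting and 14.5% with the stricter filter. In microglia the 2 higher became 4 with a mean over nuclei and 0 with the profile subtracted, and the 1 lower became 0 with a stricter filter or doublets kept. Of all genes in microglia 6.02% were higher in the main setting and 5.96% with the profile subtracted. Lower were 10.4% in the main setting and with the stricter filter, and 11% with doublets kept. No share over all genes is given for the mean over nuclei. In endothelial cells the 2 higher became 5 with a stricter filter, 4 with doublets kept or no UMI minimum, and 0 without filters, with the profile subtracted or within 1 depth range. The share of all genes also moved, from 6.91% higher in the main setting to 11.7% with the stricter filter and 10.9% with doublets kept. It was 2.07% with no UMI minimum, 7.29% without filters, 7.24% with the profile subtracted and 10.9% within 1 depth range. Nuclei were clustered anew with the stricter filter and with doublets kept, and the endothelial class then held more neuronal RNA. Its summed neuron markers were 2621 CPM in PS19 and 3529 in PZKO with the stricter filter. With doublets kept they were 1256 and 1697, against 936 and 1090 in the main setting. *Meg3* had 2025 and 3121 CPM with the stricter filter, against 98.4 and 219.5. The sign turned for *Neat1* in OPC, to -0.155 with a mean over nuclei, -0.038 with doublets kept and -0.106 with each library clustered alone, and in astrocytes under the stricter filter to -0.804 for *Meg3*, -0.271 for *Rian* and -0.940 for *Snhg11*. The causes were not tested. *Mirg*, *Miat* and *Pvt1* held under 20 UMIs in several classes outside neurons, so their values there are imprecise. *Pvt1* nevertheless had 1764 UMIs in PS19 and 2006 in PZKO microglia.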
